A study of Cyanidioschyzon merolae with 75 samples.

Results

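CMO250C, listed as APCC, and CMP166C, listed as CPCC, are the nuclear genes for linker proteins of the phycobilisome in the unicellular red alga Cyanidioschyzon merolae. They were chosen by locus tag and described function, and make up 2 of the 4576 genes on the array. Each had 1 probe. The gene names come with this choice of members, because the gene table used here, of assembly ASM9120v1, pairs the tags with no other symbol.

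Phycobilisomes are the large light-harvesting antennae that sit on the thylakoid membranes of red algae and cyanobacteria. A core of allophycocyanin carries rods of phycocyanin, and linker proteins hold these discs together and pass energy towards the photosystems. APCC is the small linker of the core, and CPCC is a linker within the rods. In red algae the pigment-carrying subunits are coded mainly by the plastid, while these linkers are coded in the nucleus and imported.

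The study followed strain 10D, a laboratory strain with no transgene or treatment named in the labels, through 2 cell cycles after the culture had been brought into step by alternating light and dark. Samples were taken at 25 times, every 2 h from 2 to 50 h, and each time is a group. Total RNA of each time, amplified from an oligo(dT) primer and labelled with Cy3, was hybridised beside a Cy5-labelled mixture of the samples on 75 arrays in 3 series. No source used here gives the clock hours of light and dark, so times below are hours of sampling only. A ratio of the culture cannot tell fewer cells with a transcript from less transcript per cell.

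Values are log2(Cy3/Cy5) minus the median of all probes on the array, so 0 means the same ratio to the pool as the median probe, and 1 unit is a factor of 2 in ratio. At 24 of 24 times with intensities in 3 series, every intensity of series 3 equalled the mean of series 1 and 2 within 0.01%. Each time was hence taken as 1 sample, read from series 3, and errors are those of fits over times, with no replicate culture. Readings of series 1 and 2 differed by a median of 0.022 for CMO250C and 0.035 for CMP166C over 24 times, and by at most 0.44 (CMO250C, 24 h) and 0.12 (CMP166C, 20 h). Both probes were very bright. CMO250C stood above 95% of probes on all 25 arrays, with a median percentile of 99.4, and so did CMP166C, with a median of 97.7. Median Cy5 intensity was 12093 or more on the bright arrays of 2, 4, 6 and 26 h and 4668 or less on the other 21. For such bright probes a loess curve, which removes the trend of ratio with brightness within each array, can give other values than median centring, and the loess value stands beside the main one where a result turns on it.

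The small core linker CMO250C ran between -0.33 and -0.51 at most of the first 12 h. Its values were -0.46, -0.33 and -0.40 at 2, 4 and 6 h. They were -0.96, -0.37 and -0.51 at 8, 10 and 12 h. At 14, 16 and 18 h they were -1.53, -1.10 and -1.39, so these 3 times lay below all 6 earlier ones. The return was uneven. At 20, 22 and 24 h the values were -0.74, -0.81 and -0.098, the last of these being the highest of the first cycle. The readings at 24 h were apart, at -0.32 in series 1 and 0.12 in series 2. In series 1 the highest of the first cycle was -0.31 at 4 h. With loess the highest was -0.23 at 22 h.

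In the second cycle CMO250C was high for the first part and low for the rest. It measured -0.27, 0.31 and 0.21 at 26, 28 and 30 h. The values at 32, 34 and 36 h were 0.23, 0.33 and -0.042. The highest ratio of the whole course was that at 34 h, or with loess that at 32 h (0.80). At 38, 40 and 42 h it measured -1.60, -1.26 and -1.40. At 44, 46 and 48 h it measured -1.23, -1.85 and -0.89, and at 50 h -0.38. Under median centring the 6 values from 26 to 36 h and the 6 from 38 to 48 h did not overlap. With loess they did, since 46 h was at 0.18, above 26 h at -0.30 and 28 h at -0.14. The split was read from the course itself, and the share of all genes with such a split was not taken. Apart from the gap at 24 h, series 1 and 2 followed much the same course, as the plot of both genes by sampling time shows.

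The rod linker CMP166C had the same outline with a wider swing. Its values were -0.84, -0.50 and -0.78 at 2, 4 and 6 h. They were -0.50, -0.44 and -0.98 at 8, 10 and 12 h. At 14, 16 and 18 h they were -2.67, -1.85 and -2.19, all below the 6 earlier times, and 14 h was the lowest of the whole course. Only series 3 holds intensities at 14 h, so that value of either linker has no second reading. At 20, 22 and 24 h they were -1.70, -1.44 and -0.11, the last being the highest value of the first cycle. Most of this climb was the step of 1.32 from 22 to 24 h (0.60 with loess).

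From 26 h CMP166C was less even than the core linker. It measured -0.68, 0.53 and -0.62 at 26, 28 and 30 h, so 28 h stood above both neighbours by more than the readings differed. At 32, 34 and 36 h it measured 0.68, 1.35 and 0.59. These were the 3 highest values of the course, above the 0.53 at 28 h. At 38, 40 and 42 h it measured -0.81, -0.83 and -1.33. At 44, 46 and 48 h it measured -1.18, -1.43 and -1.87, and at 50 h -0.99. The low of the second cycle thus came at 48 h, and the high of the first at 24 h. With loess the low was again at 48 h (-1.58), but the high of the first cycle was at 8 h (-0.22, against -0.42 at 24 h).

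**Figure D1:**
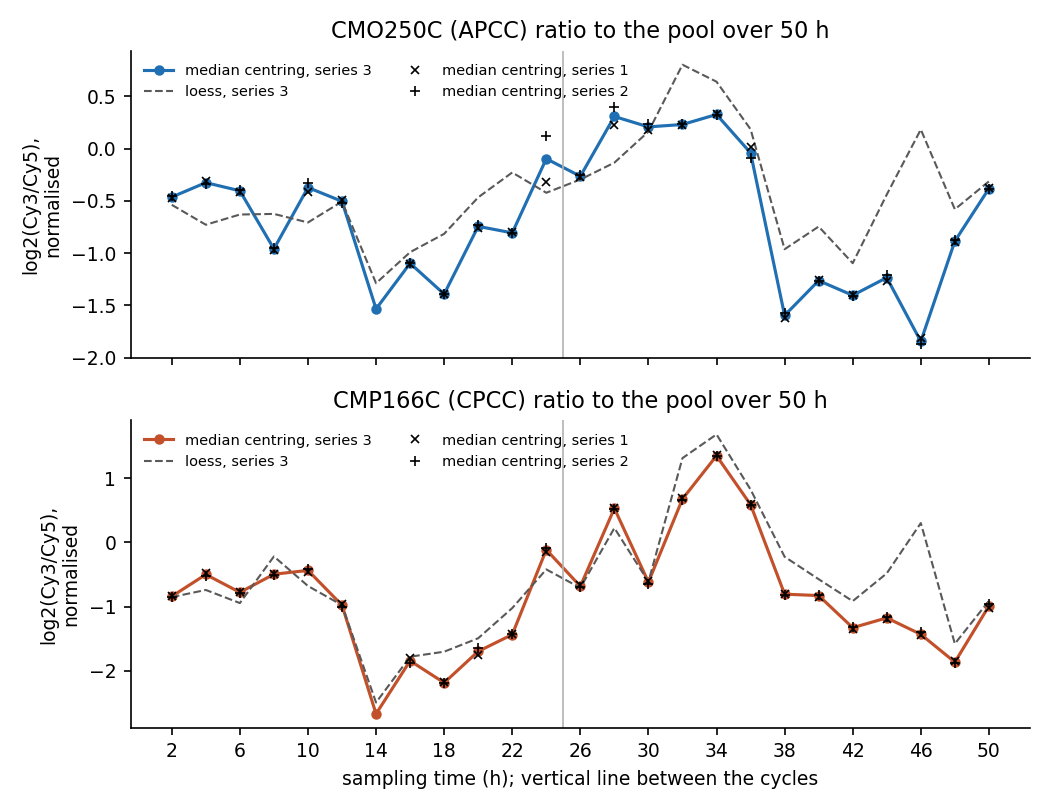
Log2 ratio of Cy3 to Cy5 of each linker gene (vertical axis) against sampling time in h (horizontal axis). Coloured points are series 3 after median centring, the dashed line is series 3 after loess, and crosses are series 1 and 2 after median centring, absent at 14 h. Both genes are low at 14 to 18 h, and CMO250C is low again from 38 to 46 h. CMP166C is highest at 34 h with 1.35, drops to near its own mean at 38 and 40 h, and is at -1.87 at 48 h. The loess line lies well above the points at 46 h.

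CMP166C ranged over 4.03 on the log2 scale, the widest but 17 of the 4576 genes, and CMO250C over 2.17, ranked 396. The median range of all genes was 0.92. With loess the ranges were 4.18 and 2.09. Both genes were spread more widely in the second cycle: the range went from 1.44 to 2.17 for CMO250C and from 2.56 to 3.22 for CMP166C. Of all genes, 68.8% ranged more widely in the second cycle.

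Both genes dropped at the same point of each cycle. Between 12 and 14 h CMO250C changed by -1.03 and CMP166C by -1.69. Between 36 and 38 h, 24 h later, the changes were -1.55 and -1.40. Under median centring these were the 2 largest downward steps among the 24 of each gene. The median gene changed by -0.012 and -0.024 at these steps. Between 12 and 14 h 1.07% of all genes dropped as far as CMO250C and 0.26% as far as CMP166C. Between 36 and 38 h the shares were 0.85% and 1.16%. Loess gave steps of -0.78 and -1.15 for CMO250C and -1.52 and -1.05 for CMP166C. For CMO250C these were again the largest downward steps, but with loess CMP166C had a larger one of -1.88 from 46 to 48 h, where median centring gave -0.43, and an upward step of 1.93 from 30 to 32 h. Single steps have no test, and the step from 12 to 14 h rests on series 3 alone at 14 h.

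To ask whether the linkers followed the day, a curve with a period of 24 h was fitted to every gene over 25 times in limma. A gene was called rhythmic where its p, adjusted over all genes by Benjamini-Hochberg, was under 0.05 and the curve spanned 1 or more from trough to peak. The call passed for both linkers, against 6.03% of all genes (24% by adjusted p alone). CMO250C had a peak-to-trough of 1.37 ± 0.24 (standard error of the fit) and a fitted peak at 6.05 ± 0.64 h, with a limma adjusted p of 6.01e-04. CMP166C had 1.75 ± 0.40 and a peak at 7.35 ± 0.84 h, with a limma adjusted p of 0.00709. The median peak-to-trough of all genes was 0.24. R squared of the curve was 0.58 for CMO250C and 0.43 for CMP166C.

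Neither call held after loess, where 5.11% of genes were called (30.5% by adjusted p alone). The peak-to-trough was then 0.64 ± 0.26 for CMO250C, with a limma adjusted p of 0.138, and 1.22 ± 0.48 for CMP166C, with 0.122. The peaks stayed near, at 5.60 and 7.76 h. The brightest 5% of probes, 228 without the linkers, had a course of their own under median centring: their median ran from 0.28 at 4 h to -1.50 at 46 h. Over 25 times it correlated with CMO250C at 0.70 and with CMP166C at 0.35, as a description. Centred on these probes in place of all probes, a setting chosen after the data were seen, the peak-to-trough was 0.69 ± 0.23 for CMO250C and 1.13 ± 0.37 for CMP166C. The part of the bright probes' course in the rhythm of the linkers was not tested.

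**Figure D2:**
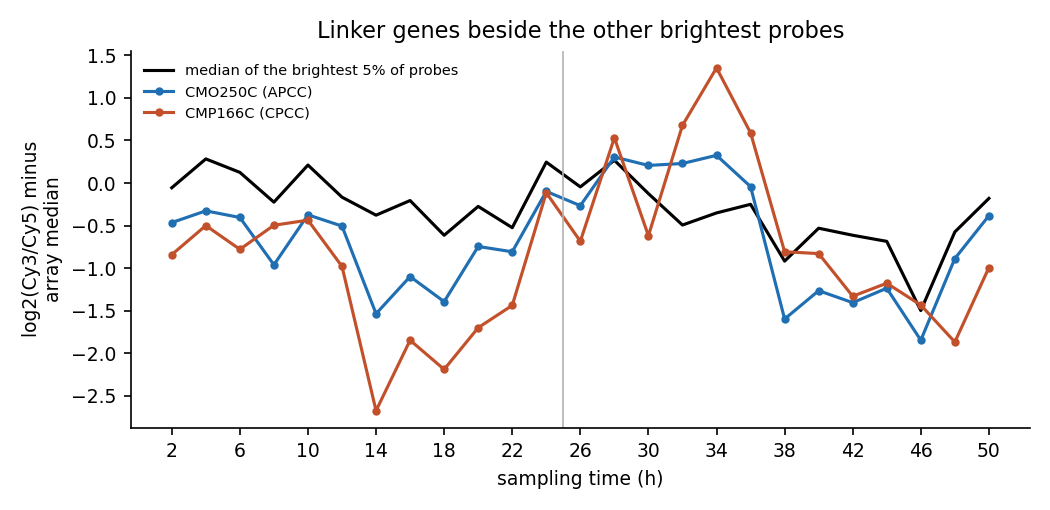
Log2 ratio minus the array median (vertical axis) against sampling time in h (horizontal axis) for both linker genes and, in black, for the median of the brightest 5% of probes without the linkers. The black line reaches -1.50 at 46 h, where the linkers are at -1.85 and -1.43, and is near the array median in the first 12 h. The linkers lie above it at 28 to 36 h, apart from CMP166C at 30 h. They lie below it at all times from 2 to 26 h and from 38 to 50 h, apart from CMP166C at 38 and 46 h.

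Each cycle was also fitted alone. From 2 to 24 h CMO250C had a peak-to-trough of 0.88 ± 0.24 and was not called, with a limma adjusted p of 0.0605, where 5.2% of genes were called. CMP166C was called there with 1.77 ± 0.34, a peak at 4.79 ± 0.74 h and a limma adjusted p of 0.0133. From 26 to 48 h, where 6.34% of genes were called, both passed. CMO250C then had 2.06 ± 0.26 with a peak 6.95 ± 0.49 h into the cycle, and CMP166C had 2.35 ± 0.40 with a peak at 9.02 ± 0.65 h. Their limma adjusted p-values were 0.00104 and 0.00683. With loess CMP166C was called in the first cycle (1.36 ± 0.32, limma adjusted p 0.0341, with 4.59% of genes called). Neither gene was called in the second with loess, at 1.18 ± 0.33 for CMO250C and 1.81 ± 0.53 for CMP166C, where 6.69% of genes were.

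The fitted peak-to-trough was larger in the second cycle by 1.18 for CMO250C and 0.58 for CMP166C, a difference that was not tested by itself. The fitted peak of CMO250C lay at 3.79 ± 1.03 h in the first cycle. The interaction of cycle with cosine and sine, which takes in size and peak time together, missed the threshold. It had a limma adjusted p of 0.0782 for CMO250C and 0.104 for CMP166C. It was called in 0.721% of all genes, and in 2.36% with loess, where neither linker passed either. The change of peak-to-trough of CMP166C was -0.28 without the bright arrays, 0.29 without 34 h and 0.90 without 30 h. For CMO250C the interaction was called without 38 h, where the change was 1.11, with a limma adjusted p of 0.0411.

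**Figure D3:**
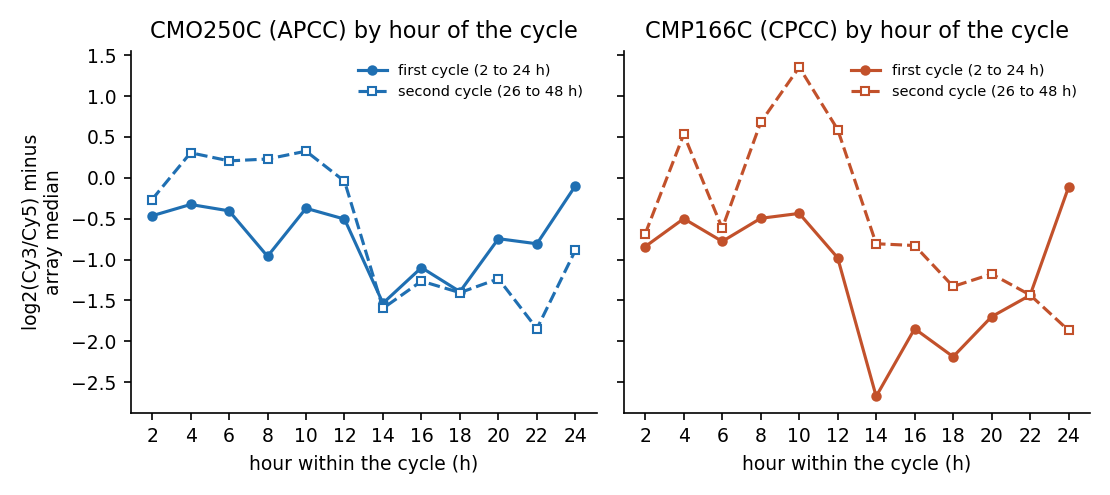
Log2 ratio minus the array median (vertical axis) of each linker gene against the hour within the cycle (horizontal axis), with filled points for 2 to 24 h and open squares for 26 to 48 h moved back by 24 h. The second cycle of CMO250C lies above the first up to 12 h and below or near it afterwards. For CMP166C it lies above at all hours but 24 h, and the points of 22 h coincide.

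The level of the second cycle was set against the first at 12 matched times, to ask whether the linkers kept another level, and called at an adjusted p under 0.05 and a difference of at least 1.5-fold. CMO250C was higher at the 6 times from 26 to 36 h, by 0.20 to 1.19, and lower at the 6 from 38 to 48 h, by differences of -0.012 to -1.04. Its mean difference was 0.10 ± 0.17 (standard error), with a limma adjusted p of 0.818. CMP166C was higher at 11 of 12 matched times, 1 of them by only 0.0035 (46 against 22 h), with the largest difference, 1.87, between 38 and 14 h. The exception was 48 against 24 h, at -1.75. Its mean difference was 0.70 ± 0.25, which missed the threshold with a limma adjusted p of 0.147. Genes called higher made up 0.0656% of all and genes called lower 1.97%, together 2.03%.

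This result also turned on the centring and on 1 pair of times. With loess, where 0.262% of genes were called higher, 0.896% lower and 1.16% either way, CMP166C rose in the second cycle by 1.05 ± 0.25, with a limma adjusted p of 0.0358. Of the antenna and tubulin genes described below, CMQ142C was called higher there too, by 0.92 ± 0.24 (limma adjusted p 0.0483). CMN234C (0.59), CMN235C (0.60), CMN263C (0.93) and CMT504C (0.26) were higher but not called. Under median centring CMN263C was 0.75 higher and not called. Without the pair of 24 and 48 h under median centring the difference of CMP166C was 0.92, with a limma adjusted p of 0.00711. In that fit 100 genes of the array were called by level. CMO250C was 0.47 ± 0.14 higher with loess, at 10 of 12 matched times, and was not called (limma adjusted p 0.0797).

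Means over 3 neighbouring times show where the cycles parted. At 32 to 36 h CMP166C averaged 0.87 ± 0.42 (SD of 3 times) against -0.64 ± 0.30 at 8 to 12 h, and at 38 to 42 h -0.99 ± 0.30 against -2.24 ± 0.42 at 14 to 18 h. CMO250C averaged 0.17 ± 0.19 against -0.61 ± 0.31 in the first of these pairs, and -1.42 ± 0.17 against -1.34 ± 0.22 in the second. At 44 to 48 h CMO250C was lower, at -1.32 ± 0.49 against -0.55 ± 0.39 at 20 to 24 h. CMP166C had -1.49 ± 0.35 against -1.08 ± 0.85 there. Loess gave -0.28 against -0.37 for CMO250C and -0.59 against -0.98 for CMP166C. At 26 to 30 h CMO250C averaged 0.083 ± 0.31 against -0.40 ± 0.069 at 2 to 6 h. CMP166C had -0.26 ± 0.68 against -0.71 ± 0.18. The step into the new cycle, from 24 to 26 h, was -0.17 for CMO250C and -0.57 for CMP166C, and with loess 0.13 and -0.29.

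The linkers were alike without being each other's closest match. Over 25 times Pearson's r was 0.77 and Spearman's rho 0.77. It was 0.89 over the 12 times from 2 to 24 h and 0.79 over the 12 from 26 to 48 h. On the 24 steps between neighbouring times r was 0.66, and the sign of the step was the same in 20. Without 38 and 46 h, the times farthest from the median of CMO250C, r was 0.83 and rho 0.83. These values are descriptions: the points share arrays and centring, and neighbouring times are not independent. With loess r was 0.81, rho 0.62 and the sign of the step the same in 16 of 24. By cycle loess gave r = 0.68 (rho 0.41) from 2 to 24 h and 0.79 (rho 0.76) from 26 to 48 h. The order of the cycles thus turned on the centring.

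**Figure D4:**
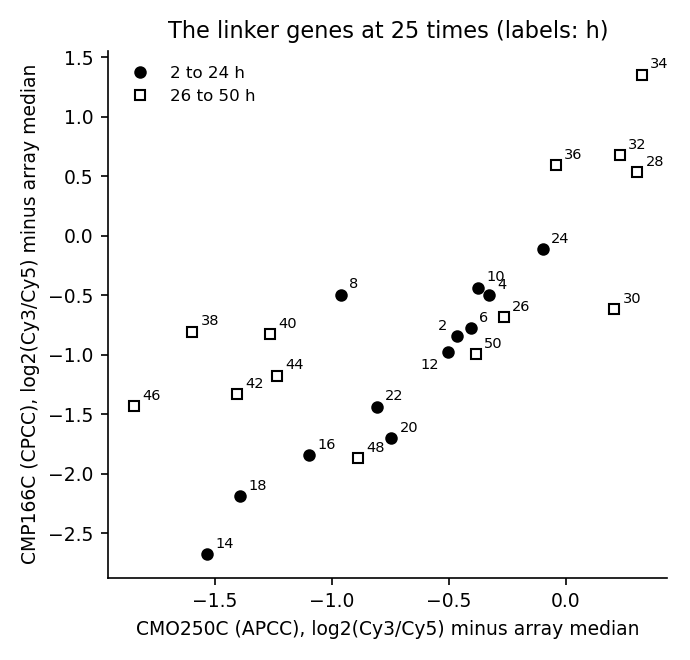
Log2 ratio minus the array median of CMP166C (vertical axis) against CMO250C (horizontal axis) at 25 times, labelled in h, with filled circles up to 24 h and open squares after. The points of 14 and 18 h lie low for both genes and those of 28 to 36 h, apart from 30 h for CMP166C, high for both. At a like value of CMO250C, the squares of 38 to 46 h lie above the circles of 14 to 18 h.

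The gap between the linkers changed over the course. With each gene taken from its own mean, CMP166C minus CMO250C averaged -0.28 over 2 to 24 h and 0.32 over 26 to 48 h, and was larger in the second cycle at 8 of 12 matched times. It ran from -0.98 at 14 h to 1.19 at 34 h. From 14 to 22 h it was negative at all 5 times, and from 32 to 46 h it was positive at all 8. Centring on the array median cancels in this difference, and loess gave means of -0.27 and 0.31.

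Of all genes, the 5 with a course most like CMO250C over 25 times were CMT182C (r = 0.96), CMI290C (0.95), CMP086C (0.95), CMC133C (0.94) and CML087C (0.94). The gene table used here names none of them. All 5 had a called rhythm, against 6.03% of all genes, with peaks from 5.65 to 6.26 h. The widest, CMP086C, had a peak-to-trough of 2.07. As they were chosen for likeness to a called gene over the same times, these calls and peaks are no separate result. CMP166C ranked 48 in this order. With loess CMI290C came first (0.95) and CMT182C second (0.92), CMP086C stayed among the 5, and CMP166C ranked 12.

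The 5 most like CMP166C were CMJ115C (r = 0.87), CMK075C (0.87), CMO136C (0.86), CMG162C (0.86) and CMF097C (0.86). CMO250C ranked 27. CMJ115C, CMK075C and CMG162C had a called rhythm, with peaks at 7.19, 6.43 and 5.75 h. CMO136C and CMF097C had peak-to-troughs of 0.61 and 0.45, too small for a call. These 5 genes too were chosen for likeness to a called gene, so their calls are no separate result. With loess none of these stayed among the first 5, which CMT182C led (0.87), and CMO250C ranked 10.

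Correlations with the genes next to the linkers on their chromosomes were also taken, as a description. The share of all genes with such values was not taken. The nearest gene on either side of CMO250C, CMO249C and CMO253C, had r = 0.17 and -0.23 with it over 25 times, and the next ones, CMO248C and CMO255C, -0.40 and 0.50. For CMP166C the neighbours CMP165C and CMP167C had r = 0.18 and -0.032, and CMP164C and CMP168C -0.30 and -0.29. With loess CMO249C and CMO253C had 0.20 and -0.025, and CMO248C and CMO255C -0.043 and 0.27. CMP165C and CMP167C then had 0.056 and 0.065, and CMP164C and CMP168C 0.29 and -0.33.

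The other antenna of red algae consists of LHCR proteins, which bind chlorophyll and serve photosystem I. CMN234C, CMN235C and CMQ142C are taken as LHCR genes from general knowledge of this genome, since the tables used here do not annotate them. All 3 had a called 24 h rhythm, with peaks at 6.22, 5.70 and 6.29 h, next to that of CMO250C at 6.05 h. Their peak-to-troughs were 3.73 ± 0.35, 4.13 ± 0.36 and 3.61 ± 0.45, and these calls also held with loess. CMO250C correlated with them at 0.85, 0.89 and 0.92, above the 0.77 between the linkers, and CMP166C correlated with them at 0.78, 0.70 and 0.82. With loess the order turned: CMO250C had 0.73, 0.71 and 0.76 with the LHCR genes, below the 0.81 between the linkers. The LHCR genes correlated with each other at 0.92 to 0.96.

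The linkers also differed from the LHCR genes over the day. Taken from its own mean, each LHCR gene stood at -2.32, -2.05 and -2.92 at 14 h, in the order above, CMO250C at -0.87 and CMP166C at -1.85. At 38 h the LHCR genes stood at -1.55, -2.11 and -1.41, CMO250C at -0.93 and CMP166C at 0.016. CMP166C was thus near the LHCR genes at the first low and far above them at the start of the second. A 24 h curve was also fitted to the gap between each linker and the mean of the LHCR genes. It was highest at 18.1 h for CMO250C and 17.1 h for CMP166C. Its peak-to-trough was 2.45 ± 0.23 for CMO250C and 2.24 ± 0.31 for CMP166C. The ordinary F-test of that curve (n = 25 times) gave p = 2.47e-09 for CMO250C and p = 1.36e-06 for CMP166C. Array centring cancels in this gap. Loess gave 2.76 ± 0.23 and 2.32 ± 0.34. The LHCR genes had wider curves with near peak times, so a gap of this kind follows from the fits above. Its p-values are thus no separate evidence of another course. This comparison was chosen after the data were seen.

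**Figure D5:**
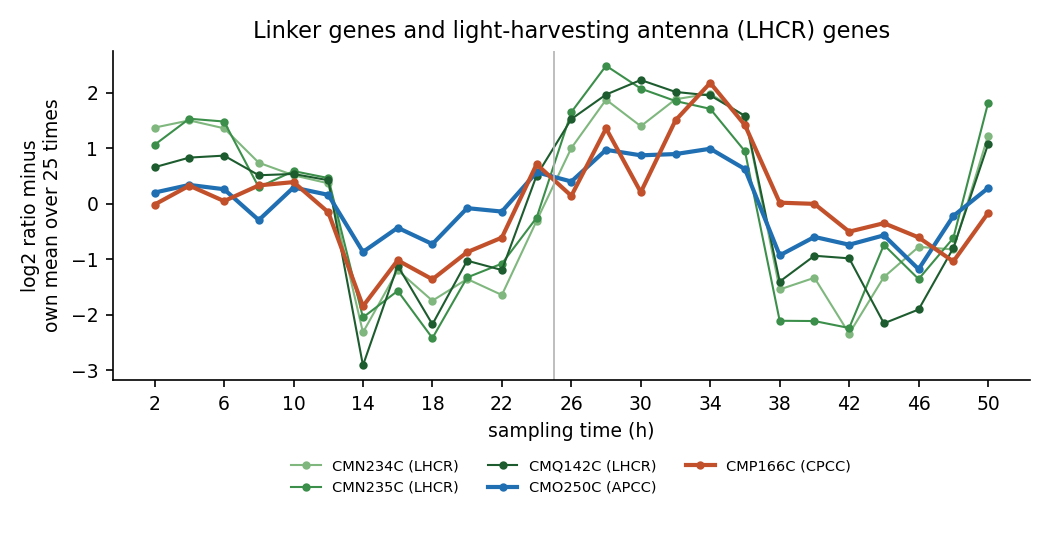
Log2 ratio of each gene minus its own mean over 25 times (vertical axis) against sampling time in h (horizontal axis) for both linker genes (thick lines) and 3 LHCR genes (thin green lines). All 5 lines are low at 14 to 18 h and from 38 to 46 h apart from CMP166C, which stays near 0 at 38 and 40 h. CMO250C has the shallowest swing.

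The tubulin genes, which build the spindle, served as markers of division and ran on another schedule. CMT504C (alpha) and CMN263C (beta), assigned in the same way, had called rhythms with peaks at 15.1 ± 0.60 and 15.2 ± 0.50 h. Fitted by cycle, the peak of CMT504C lay at 17.4 ± 0.67 h in the first and 13.6 ± 0.41 h into the second. That of CMN263C lay at 16.5 ± 0.49 and 13.95 ± 0.38 h. The interaction of cycle with cosine and sine was called for CMT504C (limma adjusted p 0.0377) and not for CMN263C (0.119). With loess it was called for both (limma adjusted p 0.0339 and 0.0277). In the first cycle CMO250C correlated with them at -0.66 and -0.77 and CMP166C at -0.79 and -0.83. In the second cycle the correlations were -0.091 and -0.20 for CMO250C and 0.37 and 0.34 for CMP166C. The part of the earlier tubulin peaks in this change of correlation was not tested.

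The Cy5 channel carries the pool at every time. The SD over the 25 arrays of log2 Cy5 minus the array median was 0.79 for CMO250C and 0.84 for CMP166C, against 0.89 and 1.20 in Cy3, and the channels correlated at 0.73 and 0.65. The part of this shared spread in the ratios was not tested.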

How the data were processed

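Raw Cy3 and Cy5 intensity values, as deposited by the authors, were used from series 3. No background column is given, so they entered uncorrected. The files also hold scaled Cy3 intensities, a ratio of scaled Cy3 to Cy5 and a log2 value, all made by the authors. Series 1 and 2 at 14 h hold only log2 values. Across 22 steps between neighbouring times in series 3, the authors' deposited log2 values followed log2 of their ratio with r of at least 0.999 and slopes of 0.998 to 1.001. Scale and direction were thus settled. Their medians over probes ran from -0.30 (28 h) to 0.65 (46 h). The deposited ratio of series 3 at 20 h repeats 18 h, and its log2 column at 48 h differs from the series table, which was used.

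Log2(Cy3/Cy5) was centred on the array median and, for the 10 genes with 2 probes, their mean was taken. Dyes were assigned alike on all arrays per the labels, so dye bias is part of each ratio. Arrays correlated down to -0.55 (4 and 38 h), and 26 of 300 pairs lay under -0.3. limma 3.58.1 in R 4.3.3 fitted all 4576 genes with Benjamini-Hochberg adjustment, and was tested on simulated data. Fits take times as independent, which neighbouring times are not. Genes were named as the members, the 5 most correlated with each, the LHCR genes and the tubulins. Lists of photosystem and tetrapyrrole genes by product text had no member, because the gene table gives none. Tags of 4565 genes matched it and 11 did not. Members, lists and thresholds were chosen with earlier results of these data known.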

Additional observations from a re-analysis of the deposited data

How the results depend on the processing

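Rhythm calls of the linkers were lost with loess (0.64 for CMO250C, 1.22 for CMP166C), and that of CMO250C also when centred on the brightest probes (0.69). That of CMP166C passed with the brightest probes. This centring moves all other probes, with a median range of all genes of 1.99, and the share of genes called there was not taken. Both calls held in all other fits, including 25 with a time left out, and with normexp at an offset of 50. The level of CMP166C became a call with loess (1.05), scaling between arrays (0.81), the authors' log2 values (0.78), array weights (0.80), the brightest probes (1.05) and with every array entered by itself (0.63, replicate block 0.63), and ran from 0.59 to 0.92 with a time or series left out. With the brightest probes the LHCR genes and CMN263C were called higher as well, and the share of all genes was not taken. The level difference of CMO250C was -0.023 without the bright arrays. Change of rhythm was called for CMO250C with every array entered by itself (1.27, replicate block 1.27) and array weights (1.16), and ran from 1.03 to 1.34 with a time or series left out. For CMP166C it was called at 0.74 (replicate block 0.74) and 1.09, was -0.28 without the bright arrays, and ran from 0.29 to 0.90 with a time or series left out. Separate arrays count repeated readings as samples. Series 1 readings at different times deviated together by a median r of 0.013, so the main fits did not take the numbers as pairs. With separate arrays, level differences were still taken within each series number.

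The 276 rhythmic genes became 444 under normexp and 1096 on adjusted p only. Level calls numbered 93 (3 higher, 90 lower), 53 with loess (12 and 41), 160 with normexp and 204 by adjusted p alone. They numbered 105 with scaling, 72 in the authors' log2 values, 78 with weights and 119 with separate arrays (119 with the block). Change calls numbered 33, and 108 with loess, 103 with scaling, 67 with normexp, 15 leaving out the bright arrays, 64 in the authors' log2 values, 458 with weights, 2813 with separate arrays (2770 with the block), and 10 to 60 with a time or series left out. The correlation of the linkers was 0.81 with loess, 0.78 with scaling, 0.74 with normexp, 0.72 in the authors' values, 0.77 without the bright arrays, 0.66 on steps and 0.74 to 0.81 with a time or series left out. The cause of these changes was not tested.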
